A study of Mus musculus with 18 samples.

Results

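Heparan sulfate enzymes and proteoglycans were followed in cell lines from mouse malignant peripheral nerve sheath tumors (MPNSTs), which are aggressive sarcomas of peripheral nerve. The set holds 39 of the 35275 genes in the read-count table, taken by name: 19 core proteins that carry sugar chains, 5 enzymes that build heparan sulfate chains, 12 that sulfate or epimerize them and 3 that edit or cut the finished chain. RNA was measured in 6 lines, each from a separate tumor and grown in 3 cultures. All 6 came from wild-type 129 Sv/Jae mice whose sciatic nerve was injected with adenovirus carrying Cas9 under a CMV promoter, and both genotypes share the loss of *Nf1*. In 3 lines the guides also targeted p53 (*Nf1*/*p53* dKO) and in the other 3 they also targeted *Cdkn2a* (*Nf1*/*Cdkn2a* dKO). The age of the mice was not given in the labels. The lines grew untreated in serum-containing medium and are described as mesenchymal and passaged at least 20 times, so they model tumor cells in culture only.

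Heparan sulfate is a linear sugar chain built on core proteins at the cell surface and in the basement membrane. EXT enzymes extend the chain, NDST enzymes start its sulfation, an epimerase and several O-sulfotransferases complete the pattern, and the extracellular SULF enzymes remove 6-O-sulfates again. The resulting sulfation pattern sets which growth factors, such as FGFs, Wnts and heparin-binding EGF, can be held and presented at the cell surface. Versican, CSPG4, decorin and biglycan carry chondroitin or dermatan sulfate instead, and the small leucine-rich proteoglycans, to which decorin, biglycan, lumican and fibromodulin belong, bind collagen fibrils.

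Library totals were 19560535 to 28312207 counts (median 23149777). Levels are given in CPM, counts scaled to library size with TMM factors, for the summed cultures of lines 1, 2 and 3 of each genotype in that order. *Trp53* RNA was at 94.1, 67.5 and 58.7 CPM across the *Nf1*/*p53* dKO lines compared with 247, 246 and 185 CPM across the *Nf1*/*Cdkn2a* dKO lines (adjusted p = 0.0361), in the direction of the labels. *Nf1* and *Cdkn2a* RNA overlapped between the genotypes (adjusted p = 0.328 and 0.83), and as background a guide cut need not lower the RNA of its gene. Mesenchymal markers summed to 8826 to 23520 CPM and 11450 to 18140 CPM. The Schwann cell marker *Sox10* was at or below 0.0990 CPM in every line. The Schwann cell markers *S100b*, *Mbp*, *Erbb3* and *Foxd3* summed to 1.979 to 8.925 CPM across the *Nf1*/*p53* dKO lines compared with 0.3173 to 1.47 CPM in the others, all 4 had the lower fitted level in the *Nf1*/*Cdkn2a* dKO and 0 were called by edgeR (1 at an unadjusted p under 0.05). Muscle progenitor markers summed to 53.75 to 416.6 CPM across the *Nf1*/*p53* dKO lines compared with 0.2033 to 0.8021 CPM in the others. Of these 6 markers 4 were tested, all 4 had the lower fitted level in the *Nf1*/*Cdkn2a* dKO, and *Pax7* was at or below 0.0277 CPM in every line. Cartilage markers summed to 2.38 to 14.09 CPM compared with 0.9465 to 1.877 CPM and epithelial markers to 2.671 to 739.4 CPM compared with 8.258 to 611.1 CPM. Leukocyte markers summed to at most 8.279 CPM and endothelial markers to at most 2.503 CPM in any line. Among all markers edgeR called *Myf5*, *Cdh15* and *Tek*, each lower in the *Nf1*/*Cdkn2a* dKO. In *Nf1*/*p53* dKO line 3, *Myod1* reached 204 CPM, so results that rest on this line are given with and without it.

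The genotypes were compared with edgeR's quasi-likelihood test on the 6 lines, 3 against 3, and p-values were adjusted by Benjamini-Hochberg over all 15207 genes that passed the filter on low counts. A positive log2 fold change is a higher level in the *Nf1*/*Cdkn2a* dKO lines. Of the 39 genes, 36 were tested and 2 were called at an adjusted p under 0.05. *Sulf2*, a heparan sulfate 6-O-endosulfatase, rose in the *Nf1*/*Cdkn2a* dKO lines by 23.0-fold, and *Dcn*, which encodes decorin, fell by 81.0-fold. Over all genes tested 1.8% were called, 0.638% as higher and 1.16% as lower, and 2 genes are too few to set beside that share. At an unadjusted p under 0.05 stood 11 of the 36, 3 higher and 8 lower, against 22.4% of all genes. The fitted level was higher for 15 and lower for 21, with a median log2 fold change of −0.13, against −0.02 over all genes. The values of all lines of one genotype lay above all lines of the other for 10 of the 36, against 31.4% of all genes.

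**Figure D1:**
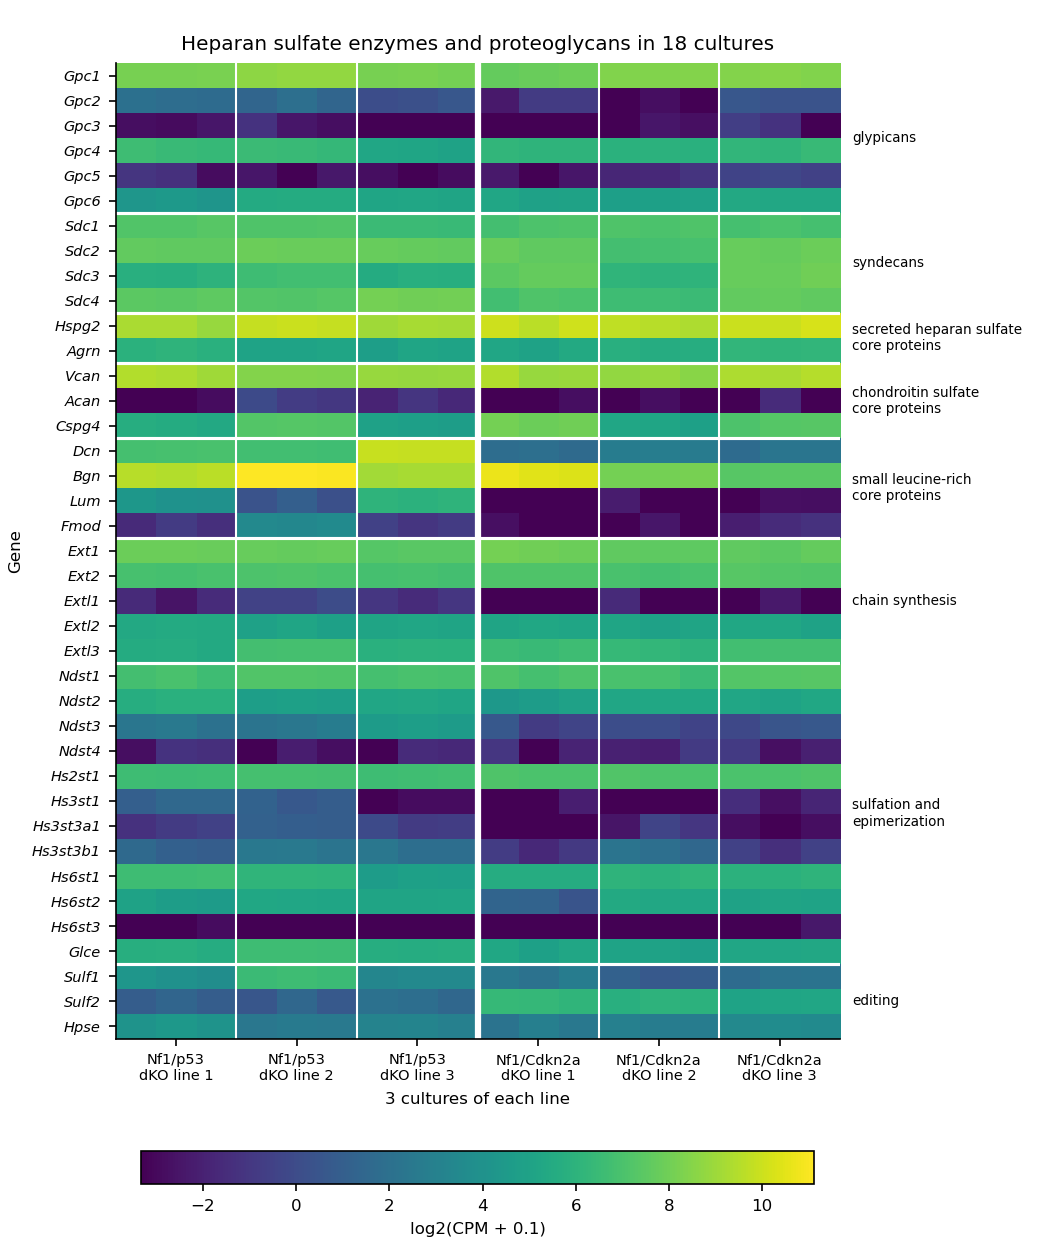
Level of each of the 39 genes (rows, grouped by role) in the 18 cultures (columns, 3 per line), as log2(CPM + 0.1). The rows of *Sulf2*, *Dcn* and *Lum* change color at the thick line between the genotypes, whereas *Ext1*, *Ext2* and *Ndst1* keep nearly 1 color across it.

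The enzymes that edit finished chains held the clearest difference. *Sulf2* was at 2.08, 1.90 and 3.51 CPM across the *Nf1*/*p53* dKO lines compared with 75.6, 60.6 and 35.8 CPM across the *Nf1*/*Cdkn2a* dKO lines. The 9 cultures of the former ran from 1.34 to 4.12 CPM and those of the latter from 33.1 to 80.9 CPM, so no culture overlapped. The means of the lines were 2.495 ± 0.888 and 57.4 ± 20.1 CPM (SD, n = 3 lines each). The log2 fold change was 4.52 (SE 0.41, 95% interval 3.55 to 5.50, adjusted p = 0.0189, higher in 3 of 3 lines). With each line left out in turn it lay between 4.28 and 4.86, and the adjusted p between 0.0365 and 0.0889. It missed the threshold without *Nf1*/*p53* dKO line 2, *Nf1*/*Cdkn2a* dKO line 1 or *Nf1*/*Cdkn2a* dKO line 2, and passed it without *Nf1*/*p53* dKO line 3. The summed muscle progenitor, Schwann cell and cartilage markers had the opposite order without overlap, and their part in the result was not tested.

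*Sulf2* lies on chromosome 2 at 166073089 to 166155663 on the minus strand of GRCm38. Its exons overlap those of *Ncoa3* on the opposite strand over 154 bases, 2.6% of its exonic bases. *Ncoa3* had 14580 counts over all libraries, against 11756 for *Sulf2*. Whether the counting used strand is not given in the sources used here. The 250 bases before the most upstream of its RefSeq starts (GRCm38.p6, chr2:166155684-166155933, minus strand) are shown because *Sulf2* is the called gene of the set with the narrowest interval and the table holds its promoter. The window before its other RefSeq start (chr2:166155286-166155535) held 2 E-boxes, 0 TATAA and 0 GGGCGG. In the window shown, capitals mark the letters TATAA of a TATA box, at bases 7 to 11 and so far from the start. They also mark a GC box (GGGCGG, here read on the other strand) and a pair of E-boxes (CANNTG). Both strands were searched, and none of the marked stretches overlaps another.
Sulf2: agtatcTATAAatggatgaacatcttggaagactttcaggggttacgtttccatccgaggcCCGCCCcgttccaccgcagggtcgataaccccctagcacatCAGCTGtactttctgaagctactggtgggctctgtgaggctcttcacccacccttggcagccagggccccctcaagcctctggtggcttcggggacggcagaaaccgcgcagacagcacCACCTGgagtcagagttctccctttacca
Such windows held TATAA in 22.8%, GGGCGG in 32.7% and an E-box in 66.2% of all 32851 promoters of that length. Neither an AP-1 motif (TGANTCA, 6.75% of promoters) nor a p53 half-site (7.13%) was in the window, which says only that these letters are absent there.

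*Sulf1*, which encodes the other 6-O-endosulfatase, had the opposite order. It was at 15.8, 93.5 and 10.6 CPM across the *Nf1*/*p53* dKO lines compared with 5.49, 1.83 and 3.93 CPM across the *Nf1*/*Cdkn2a* dKO lines, with no overlap. The difference did not pass the test (log2 fold change −3.42, SE 0.94, 95% interval −5.67 to −1.16, adjusted p = 0.106), while DESeq2 on the same lines called it (adjusted p = 0.000428). It rested in part on *Nf1*/*p53* dKO line 2, without which the log2 fold change was −1.80. *Hpse*, the heparanase that cuts the chain, was at 18.2, 5.57 and 8.55 CPM against 5.65, 7.08 and 11.96 CPM, and its lines overlapped (log2 fold change −0.39, 95% interval −1.60 to 0.83, adjusted p = 0.684).

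Per kilobase of the longest GENCODE transcript, the levels of the SULF genes can be set beside each other. The ratio of *Sulf2* to *Sulf1* was 0.161, 0.0248 and 0.404 in the *Nf1*/*p53* dKO lines compared with 16.8, 40.5 and 11.1 in the *Nf1*/*Cdkn2a* dKO lines. *Sulf1* was thus the higher of the pair in every *Nf1*/*p53* dKO line and *Sulf2* in every *Nf1*/*Cdkn2a* dKO line. With 3 lines a side the smallest p an exact permutation test allows is 0.1 (two-sided), so the ratio is given as a description. *Sulf2* made up 85.5, 83.6 and 63.3% of the summed CPM per kilobase of the 3 editing genes in the *Nf1*/*Cdkn2a* dKO lines. In the *Nf1*/*p53* dKO lines its share was 4.97, 2.19 and 14.2%, and there either *Hpse* (64.1 and 50.7% in lines 1 and 3) or *Sulf1* (88.4% in line 2) was the largest. The sum of the 3 genes overlapped, at 9.11, 18.9 and 5.41 against 19.3, 15.8 and 12.4 CPM per kilobase.

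**Figure D2:**
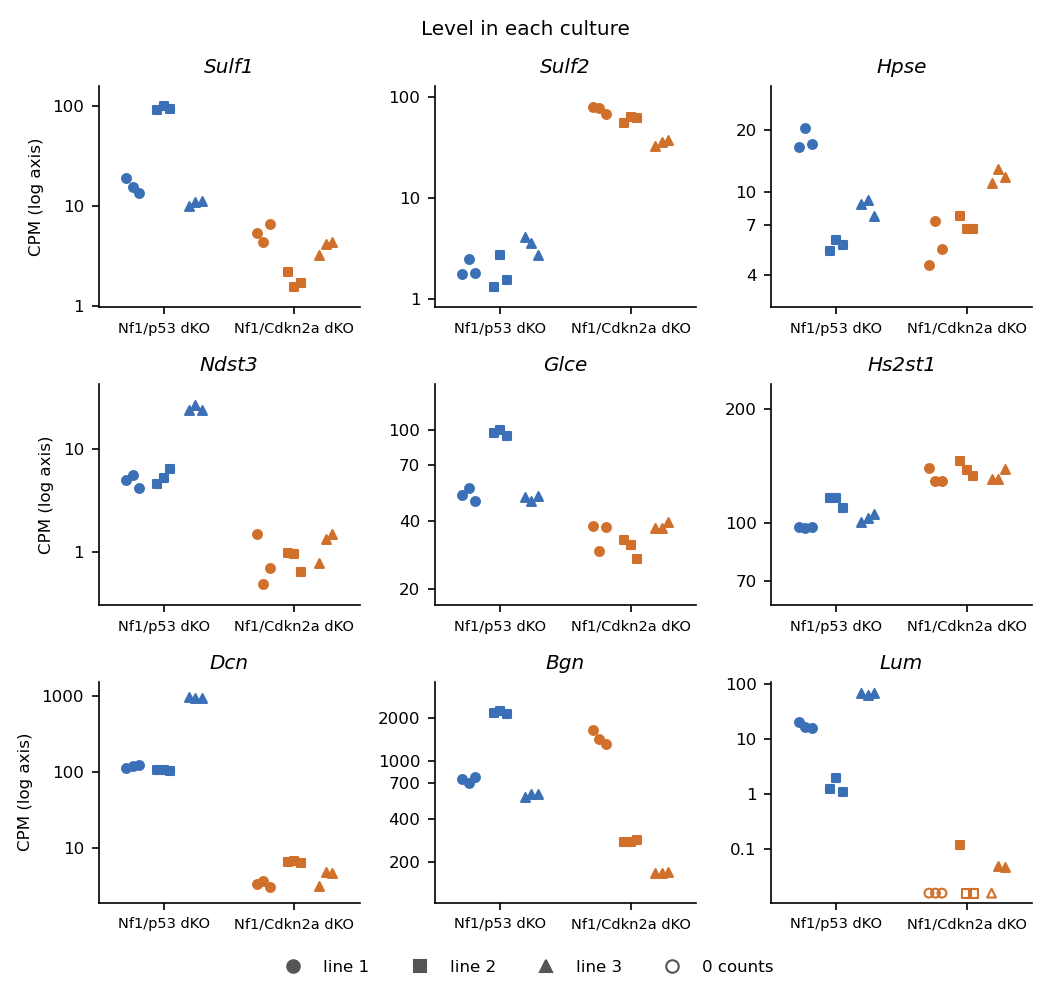
CPM in each culture on log axes for 3 editing enzymes (top), 3 sulfation and epimerization enzymes (middle) and 3 small leucine-rich core proteins (bottom), with a symbol per line and open symbols at the foot of the *Lum* panel for cultures with 0 counts. Cultures of 1 line lie close together beside the distance between lines, as for *Sulf1* (91.1 to 98.1 CPM in *Nf1*/*p53* dKO line 2 against 9.90 to 11.1 CPM in line 3).

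Among the 4 small leucine-rich core proteins of the set, 3 had lines that did not overlap, against 31.4% of all genes tested. These 3 had their higher level in the *Nf1*/*p53* dKO lines. Small leucine-rich genes outside the set, tested among the other core proteins below, went both ways and none was called by edgeR. *Prelp*, *Omd* and *Podn* had a higher fitted level (log2 fold changes 2.38, 0.70 and 0.68) and *Ogn* and *Aspn* a lower one (−2.88 and −2.28). *Dcn*, the decorin gene, was at 119, 104 and 934 CPM across the *Nf1*/*p53* dKO lines compared with 3.40, 6.59 and 4.29 CPM across the *Nf1*/*Cdkn2a* dKO lines. Line 3 of the *Nf1*/*p53* dKO was far above its other lines. The log2 fold change was −6.34 (SE 1.08, 95% interval −8.93 to −3.75, adjusted p = 0.0470, lower in 3 of 3 lines). Without *Nf1*/*p53* dKO line 3 it was −4.55 (adjusted p = 0.0320). The difference missed the threshold without any of the other 5 lines, where the adjusted p reached 0.153. DESeq2 on the 6 lines gave no p for *Dcn*, so the call rests on edgeR there. The summed muscle progenitor, Schwann cell and cartilage markers were also lower in the *Nf1*/*Cdkn2a* dKO without overlap, and line 3 was also the line with the highest *Myod1*. Their part in the result was not tested, and in bulk RNA fewer cells of a type and less RNA per cell cannot be told apart.

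*Lum*, which encodes lumican, is the neighbor of *Dcn* on chromosome 10, where 47 kilobases separate the genes (*Dcn* at 97479609 to 97518143, *Lum* at 97565128 to 97572703, both on the plus strand). It was at 17.0, 1.41 and 65.4 CPM across the *Nf1*/*p53* dKO lines compared with 0, 0.0433 and 0.0313 CPM across the *Nf1*/*Cdkn2a* dKO lines, where a count of 0 in line 1 allows up to 0.0481 CPM. The 9 *Nf1*/*Cdkn2a* dKO cultures held 5 counts in all, against 6146 in the 9 *Nf1*/*p53* dKO cultures. This is a ratio of 1090 with an exact 95% interval of 467 to 3360 that covers counting error only. The test across lines missed the threshold (log2 fold change −10.00, SE 1.79, 95% interval −14.29 to −5.72, adjusted p = 0.0511) and passed it without *Nf1*/*p53* dKO line 2 (adjusted p = 0.0429). DESeq2 on the 6 lines called it (adjusted p = 8.73e-08). As for *Dcn*, *Nf1*/*p53* dKO line 3 had the highest value, and without it the log2 fold change was −8.40 (adjusted p = 0.0718). The same marker sums had the same order, and their part was not tested here either.

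*Fmod*, the fibromodulin gene, was at 0.335, 11.05 and 0.470 CPM against 0.0160, 0.0288 and 0.235 CPM. Line 2 of the *Nf1*/*p53* dKO stood alone, and the difference did not pass the test (log2 fold change −5.38, SE 1.80, adjusted p = 0.152). Without that line the log2 fold change was −2.08. *Bgn*, the biglycan gene, had the highest mean level of the 39 genes per kilobase, and by the longest transcript the highest level in every line but *Nf1*/*Cdkn2a* dKO line 3, where *Gpc1*, *Sdc4* and *Hspg2* were above it. It overlapped between genotypes, at 741, 2164 and 583 CPM against 1454, 279 and 169.8 CPM. Its log2 fold change was −0.87 (SE 0.89, 95% interval −3.01 to 1.26, adjusted p = 0.599), and it went to −0.05 without *Nf1*/*p53* dKO line 2 and to −2.37 without *Nf1*/*Cdkn2a* dKO line 1. The median log2 fold change of the 4 genes was −5.86, and 1 of 4 was called. *Bgn* made up 49.2 to 96.9% of the summed CPM per kilobase of the 4 in the *Nf1*/*p53* dKO lines compared with 98.5 to 99.9% in the *Nf1*/*Cdkn2a* dKO lines, and *Dcn* supplied 44.8% in *Nf1*/*p53* dKO line 3. With exonic union lengths *Dcn* was above *Bgn* in that line, at 56.6 against 33.9%.

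**Figure D3:**
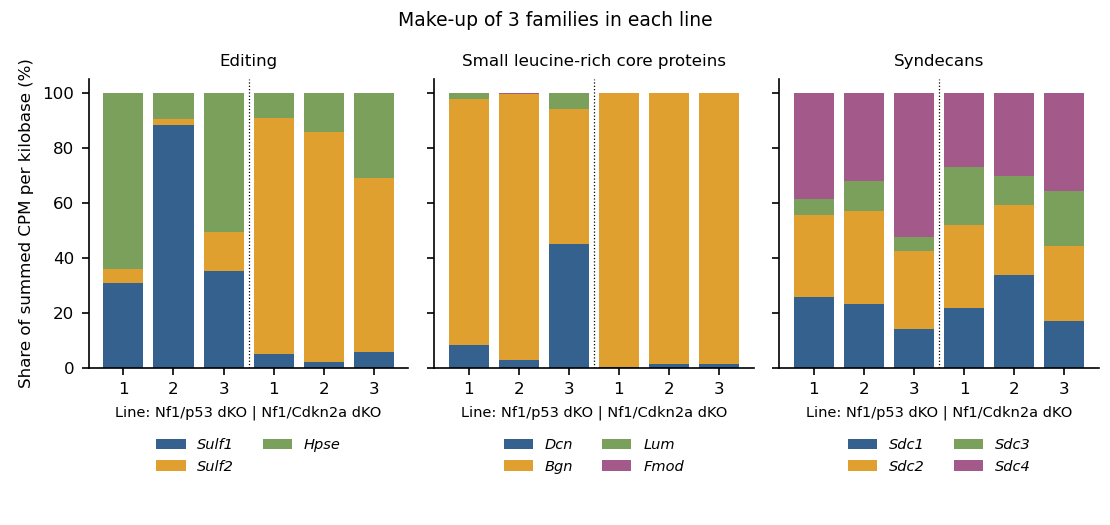
Share of each gene in the summed CPM per kilobase of the editing enzymes, the small leucine-rich core proteins and the syndecans, per line (bars; *Nf1*/*p53* dKO to the left of the dotted line). *Sulf2* fills 63.3 to 85.5% of the editing bar in the *Nf1*/*Cdkn2a* dKO lines compared with 2.19 to 14.2% in the *Nf1*/*p53* dKO lines, while the syndecan bars keep all 4 genes in every line.

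The enzymes that polymerize the chain varied little across the 6 lines, 1.49-fold from lowest to highest for *Ext1* and 1.34-fold for *Ext2*. *Ext1* and *Ext2*, the subunits of the polymerase, were at 231, 213 and 169 CPM against 252, 188 and 196 CPM, and at 119, 136 and 116 CPM against 142, 123 and 155 CPM. Their log2 fold changes were 0.05 (SE 0.19, 95% interval −0.40 to 0.50, adjusted p = 0.892) and 0.18 (SE 0.15, 95% interval −0.17 to 0.53, adjusted p = 0.511). The lines overlapped for both, and the intervals left out a change of 1 on the log2 scale. The ratio of *Ext1* to *Ext2* per kilobase lay between 0.612 and 0.941 in the 6 lines, but between 1.143 and 1.76 with exonic union lengths, so which of them is the higher depends on the length used. *Extl2*, a glycosyltransferase that acts on the linker of the chain, was at 43.9, 32.0 and 35.6 CPM against 35.7, 33.9 and 36.4 CPM (log2 fold change −0.07). *Extl3*, which adds the first glucosamine that commits a linker to heparan sulfate, was at 46.2, 115 and 59.5 CPM against 94.4, 74.4 and 111 CPM, and *Nf1*/*p53* dKO line 2 was the highest (log2 fold change 0.34, SE 0.35, adjusted p = 0.603). *Extl1* was the exception in overlap but lay near the detection limit, at 0.168, 0.721 and 0.332 CPM against 0, 0.0865 and 0.0313 CPM. Its 88 and 8 counts give a ratio of 9.76 with an exact 95% interval of 4.74 to 23.3 for counting error, and the test across lines gave an adjusted p of 0.135 (log2 fold change −3.29, SE 1.04). DESeq2 on the 6 lines called it.

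The N-deacetylase/N-sulfotransferases, which place the first sulfates, differed among themselves in level and in spread. *Ndst1*, the main form in most tissues, was at 113, 145 and 120.3 CPM against 130.0, 114 and 158 CPM (log2 fold change 0.09, 95% interval −0.33 to 0.51, adjusted p = 0.789). *Ndst2* was at 55.6, 27.8 and 37.6 CPM against 25.5, 37.7 and 36.6 CPM (log2 fold change −0.28, adjusted p = 0.609). Per kilobase *Ndst1* was above *Ndst2* in every line, by 1.23 to 3.13 times. *Ndst3* was a minor form, at 4.94, 5.40 and 25.3 CPM across the *Nf1*/*p53* dKO lines compared with 0.882, 0.865 and 1.19 CPM across the *Nf1*/*Cdkn2a* dKO lines. Its lines did not overlap, yet the test missed the threshold (log2 fold change −3.60, SE 0.74, 95% interval −5.37 to −1.82, adjusted p = 0.0619). The highest value again came from *Nf1*/*p53* dKO line 3, and without it the log2 fold change was −2.40 (adjusted p = 0.0520). The same marker sums had the same order, and their part was not tested. *Ndst4* was at or below 0.232 CPM in every line, and its difference was not detectable at this depth (33 against 42 counts).

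*Glce*, the C5-epimerase that turns glucuronic into iduronic acid, was at 52.2, 97.1 and 50.1 CPM across the *Nf1*/*p53* dKO lines compared with 35.3, 30.9 and 38.1 CPM across the *Nf1*/*Cdkn2a* dKO lines. *Hs2st1*, the 2-O-sulfotransferase that acts on the iduronic acid so made, had the reverse order, at 96.8, 114 and 103 CPM against 133, 140 and 134 CPM. Neither overlapped between genotypes and neither passed the test. The log2 fold change was −0.94 for *Glce* (SE 0.28, 95% interval −1.62 to −0.26, adjusted p = 0.125) and −0.55 without *Nf1*/*p53* dKO line 2. For *Hs2st1* it was 0.37 (SE 0.12, 95% interval 0.07 to 0.67, adjusted p = 0.151), and between 0.32 and 0.45 with each line left out. The ratio of *Hs2st1* to *Glce* per kilobase was 1.45, 0.924 and 1.61 against 2.95, 3.55 and 2.76.

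The 6-O-sulfotransferases write the mark that the SULF enzymes remove. *Hs6st1* was at 99.3, 68.3 and 27.6 CPM against 49.1, 66.6 and 62.9 CPM (log2 fold change −0.13, 95% interval −1.16 to 0.90, adjusted p = 0.883). *Hs6st2* was at 27.0, 37.4 and 35.3 CPM against 1.94, 41.0 and 33.4 CPM, so that only *Nf1*/*Cdkn2a* dKO line 1 was low (log2 fold change −0.39, SE 0.89, adjusted p = 0.825). In that line *Hs6st1* was 29.6 times *Hs6st2* per kilobase, against 0.914 to 4.30 times in the other 5 (35.6 against 1.10 to 5.18 times with exonic union lengths). *Hs6st3* had 3 counts in all 18 cultures and was not tested.

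The 3-O-sulfotransferases, which make rare sites such as that bound by antithrombin, were all low. *Hs3st1* was at 2.58, 1.84 and 0.0277 CPM against 0.0481, 0 and 0.172 CPM, with line 3 of the *Nf1*/*p53* dKO among the *Nf1*/*Cdkn2a* dKO values (log2 fold change −4.31, SE 1.67, 95% interval −8.31 to −0.32, adjusted p = 0.195). *Hs3st3a1* was at 0.464, 1.94 and 0.609 CPM against 0, 0.375 and 0.0313 CPM, with no overlap (log2 fold change −2.85, SE 1.34, adjusted p = 0.269). *Hs3st3b1* was at 2.22, 5.18 and 4.18 CPM against 0.385, 3.76 and 0.500 CPM (log2 fold change −1.31, SE 0.92, adjusted p = 0.442). *Hs3st3a1* and *Hs3st3b1* share 10.7 and 8.56% of the 50-base windows of their longest transcripts, and *Hs3st3a1* also overlaps a gene on the other strand over 32.9% of its exonic bases, so their separate values are uncertain. Of the 11 sulfation and epimerization genes tested, 3 had a higher and 8 a lower fitted level, with a median log2 fold change of −0.39 and 0 called by edgeR's adjusted test. At an unadjusted p under 0.05 were *Hs2st1*, higher, and *Ndst3*, *Hs3st1* and *Glce*, lower. DESeq2 on the 6 lines called *Ndst3* and *Hs3st1*.

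**Figure D4:**
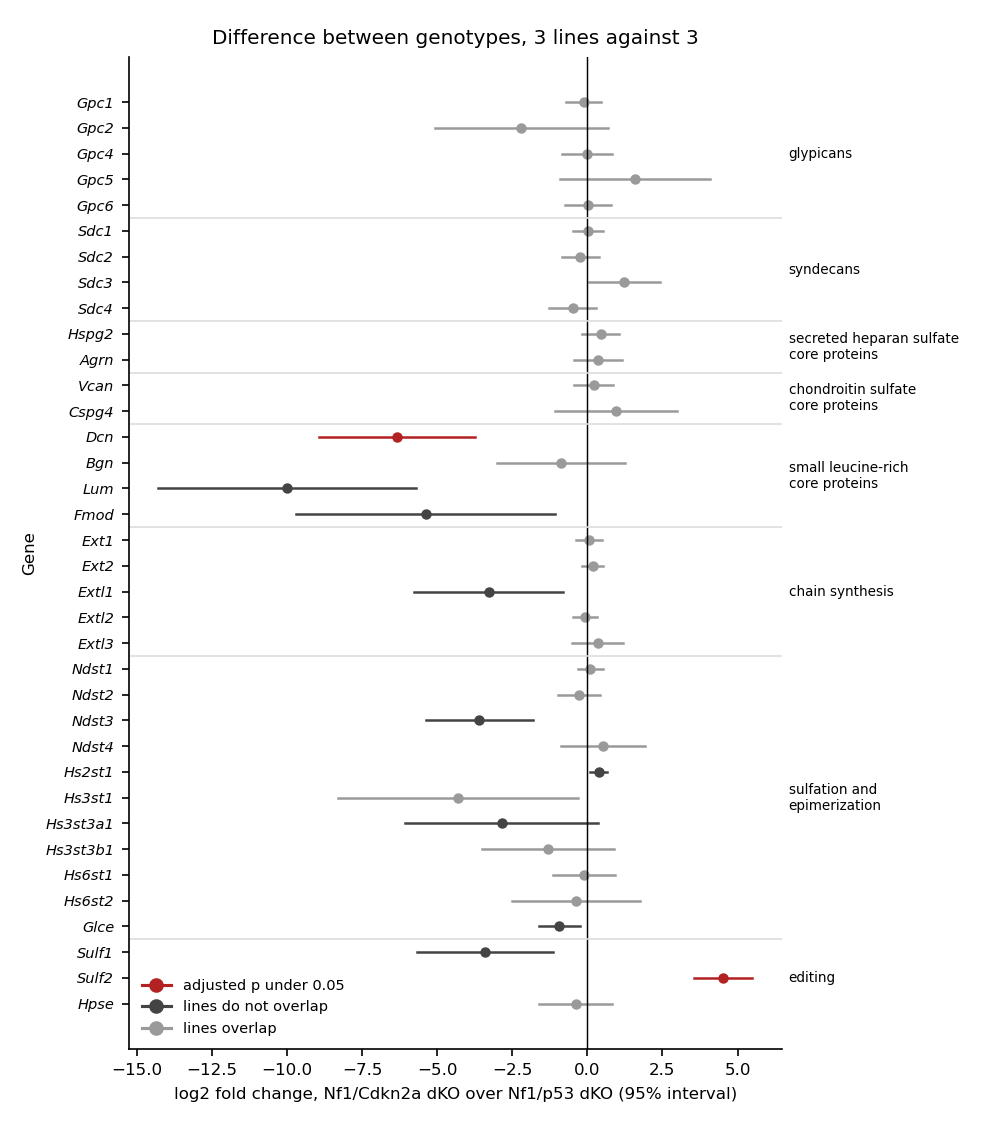
Log2 fold change of the 36 genes tested (points) with its 95% interval (lines), by role, where values right of 0 are higher in the *Nf1*/*Cdkn2a* dKO. The called genes *Sulf2* (4.52) and *Dcn* (−6.34), drawn in red, also did not overlap between the genotypes, and the intervals of *Ext1*, *Ext2*, *Ndst1*, *Sdc1* and *Gpc1* lie within 1 of 0.

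The core proteins that carry heparan sulfate at the cell surface had overlapping lines without exception. Of the glypicans, which are anchored by a lipid, *Gpc1* was the most abundant, at 286, 424 and 284 CPM against 227, 339 and 347 CPM (log2 fold change −0.12, 95% interval −0.71 to 0.46, adjusted p = 0.796). It made up 61.5 to 75.5% of the summed CPM per kilobase of the 6 glypicans in each line. *Gpc4* followed at 88.4, 85.4 and 34.9 CPM against 68.5, 60.1 and 75.9 CPM (log2 fold change −0.03, adjusted p = 0.971), and *Gpc6* at 20.004, 46.6 and 35.9 CPM against 33.6, 29.3 and 40.6 CPM (log2 fold change 0.01, adjusted p = 0.985). *Gpc2* was low, at 3.49, 2.96 and 1.13 CPM against 0.353, 0.0144 and 1.28 CPM, and *Nf1*/*Cdkn2a* dKO line 3 lay within the *Nf1*/*p53* dKO range (log2 fold change −2.20, SE 1.199, 95% interval −5.07 to 0.67, adjusted p = 0.328). Of its 50-base transcript windows 52.2% recur in an overlapping gene model, which makes its value uncertain. *Gpc5* stayed at or below 0.657 CPM (log2 fold change 1.58, SE 1.05, adjusted p = 0.416), and *Gpc3* had 37 counts in all and was not tested.

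The syndecans, transmembrane proteins that work as co-receptors with integrins and growth factor receptors, were present in every line. *Sdc1* was at 152, 141 and 89.6 CPM against 129, 137 and 121 CPM (log2 fold change 0.02, adjusted p = 0.970), and *Sdc2* at 195, 229 and 207 CPM against 202, 115 and 220.0 CPM (log2 fold change −0.23, adjusted p = 0.625). *Sdc4* was at 177, 152 and 264 CPM against 126, 96.1 and 199.9 CPM (log2 fold change −0.49, SE 0.33, 95% interval −1.28 to 0.29, adjusted p = 0.420). *Sdc3*, the syndecan best known from nerve, was at 57.0, 104 and 51.8 CPM against 199.9, 67.7 and 229 CPM. Lines 1 and 3 of the *Nf1*/*Cdkn2a* dKO were above all others, and line 2 lay inside the *Nf1*/*p53* dKO range (log2 fold change 1.23, SE 0.49, 95% interval 0.05 to 2.41, adjusted p = 0.209). No syndecan was called, and 1 of 4 was at an unadjusted p under 0.05, which DESeq2 on the 6 lines did not call either.

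Secreted and chondroitin sulfate cores also overlapped. *Hspg2*, which encodes the basement membrane proteoglycan perlecan, was at 569, 947 and 565 CPM against 969, 763 and 1085 CPM (log2 fold change 0.44, SE 0.26, 95% interval −0.18 to 1.06, adjusted p = 0.366). *Agrn*, the agrin gene, was at 61.1, 33.8 and 31.9 CPM against 38.0, 52.1 and 72.0 CPM (log2 fold change 0.35, SE 0.34, adjusted p = 0.574). *Vcan*, which encodes versican, was at 624, 339 and 467 CPM against 559.7, 431 and 667 CPM (log2 fold change 0.21, SE 0.27, adjusted p = 0.677). *Cspg4*, the gene of the pericyte and glial progenitor antigen NG2, varied 9.04-fold over the lines, at 46.8, 153 and 28.2 CPM against 255, 34.5 and 153 CPM, with high and low lines in both genotypes (log2 fold change 0.96, SE 0.85, 95% interval −1.07 to 2.99, adjusted p = 0.542). *Acan*, the cartilage aggrecan gene, had 67 counts in all and was not tested.

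Most of the spread lay between lines rather than between cultures of a line. For the 26 genes of the set with at least 10 counts in every culture, the median share of the variance of log2 CPM that lay between lines was 97.3% within the *Nf1*/*p53* dKO and 88.8% within the *Nf1*/*Cdkn2a* dKO, against 88.3 and 64.2% over 11240 genes with such counts. Of the 26 genes of the set with at least 1 CPM in every line, 10 varied less than 2-fold from the lowest to the highest line (38.5%), against 58.9% of 10895 genes. These 10 were *Ext1*, *Ext2*, *Extl2*, *Ndst1*, *Hs2st1*, *Gpc1*, *Sdc1*, *Sdc2*, *Hspg2* and *Vcan*. At the other end were *Dcn* (275-fold), *Sulf1* (51.0-fold) and *Sulf2* (39.9-fold).

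Per kilobase, the 5 highest genes of the set were *Bgn* (mean over the 6 lines 337 CPM per kilobase), *Gpc1* (76.2), *Sdc4* (68.8), *Hspg2* (57.5) and *Sdc2* (55.2). The summed CPM per kilobase of the 5 chain synthesis genes was 84.6, 94.3 and 75.0 against 98.5, 81.3 and 97.7. That of the 12 sulfation and epimerization genes was 94.0, 98.5 and 76.3 against 69.3, 84.6 and 88.4. Both overlapped between the genotypes. Genes on the opposite strand overlap 18.9% of the exonic bases of *Gpc1*, 8.1% of those of *Hs6st1* and 6.9% of those of *Sdc3*, which leaves their levels less certain. Of the 39 genes, 29 have a promoter in the RefSeq table, in 34 windows with a median GC content of 64.6%, against 52.4% over all windows.

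Genes around the pathway were read out in the same fit, and edgeR's test called 0 of the 77 tested, of which 23 stood at an unadjusted p under 0.05, against 22.4% of all genes tested. The unadjusted counts below are out of those tested. Of 16 genes that supply precursors or build the linker between core protein and chain, 3 stood at an unadjusted p under 0.05, 2 higher and 1 lower. *Slc35d1*, a transporter of nucleotide sugars into the endoplasmic reticulum, had the highest log2 fold change (1.47, SE 0.31, adjusted p = 0.0640), at 48.3, 24.1 and 23.0 CPM against 83.2, 86.6 and 95.1 CPM. *Pxylp1*, the xylose phosphatase, had the lowest (−0.62, adjusted p = 0.351). Of 10 genes listed for the lysosomal breakdown of heparan sulfate, 8 had a higher fitted level, against 7332 of 15207 genes. The 8 include *Sumf1* and *Sumf2* (log2 fold changes 0.11 and 0.01), which are not themselves enzymes that degrade the chain. At an unadjusted p under 0.05 stood 3 of the list, all higher and near the share of all genes. *Naglu*, the N-acetylglucosaminidase lost in Sanfilippo syndrome type B, led them at 19.0, 12.8 and 11.03 CPM against 30.02, 34.4 and 39.5 CPM (log2 fold change 1.28, SE 0.25, adjusted p = 0.0570), and *Arsg* was the lowest (−0.58, adjusted p = 0.392). Of the 5 other modifying enzymes, *Hs3st5* alone was tested (log2 fold change −1.05, adjusted p = 0.460), and *Hs3st2* and *Hs3st4* had 0 counts in every culture.

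Of 16 genes of chondroitin and dermatan sulfate synthesis, 4 stood at an unadjusted p under 0.05, 2 in each direction. The highest log2 fold change was that of *Chpf2* (0.71, SE 0.19, adjusted p = 0.101) and the lowest that of *Chsy3* (−5.20, SE 1.32, adjusted p = 0.0907), both of which take part in chain polymerization. The fitted log2 fold changes of 16 other core proteins tested out of 21 ran from 2.38 for *Prelp* (adjusted p = 0.235) to −5.33 for *Spock2* (adjusted p = 0.0892). *Spock2* was at 3.67, 37.4 and 1.76 CPM against 0.481, 0.173 and 0.407 CPM, far highest in *Nf1*/*p53* dKO line 2. Of these 16, 6 stood at an unadjusted p under 0.05, 2 higher and 4 lower. Of 11 genes of hyaluronan turnover tested out of 12, 4 did, 2 in each direction, with *Cemip*, a hyaluronan-degrading protein, at 28.5, 21.3 and 4.79 CPM against 229.5, 68.5 and 748 CPM (log2 fold change 4.26, SE 1.06, adjusted p = 0.0888) and *Hapln1*, a link protein, the lowest (−4.05, adjusted p = 0.110). Of 7 genes of proteoglycan shedding tested out of 9, 3 did, 2 higher and 1 lower. *Mmp14*, a membrane-bound metalloprotease, was the highest at 109, 222 and 131 CPM against 316, 411 and 381 CPM (log2 fold change 1.26, SE 0.29, adjusted p = 0.0770), and *Mmp9* the lowest (−5.00, SE 1.82, adjusted p = 0.177). *Mmp9* was at 1.29, 84.8 and 3.92 CPM against 2.20, 0.433 and 0.188 CPM. Its lines overlapped, and *Nf1*/*p53* dKO line 2 stood alone. DESeq2 on the 6 lines called 8.67% of the 23714 genes it gave a p, a total that includes genes removed by edgeR's filter. Of the pathway genes it called 15 of the 85 tested there. They were *B3gat3*, *Slc35d1*, *Naglu*, *Hgsnat*, *Chpf2*, *Cd44*, *Esm1*, *Has3*, *Cemip* and *Mmp14*, higher in the *Nf1*/*Cdkn2a* dKO, and *Chsy3*, *Ogn*, *Spock2*, *Has1* and *Hapln1*, lower.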

How the data were processed

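RNA was sequenced from 18 cultures of 6 MPNST lines. The authors deposited raw, unscaled counts of reads for 35275 genes. Processing notes of the submitters name CASAVA, STAR 2.5, DESeq2 1.14.1 and the builds GRCm38 and mm10. The counting tool, its strand setting and the annotation are not given in the sources used here. The paper's statistics section states fewer biological replicates than the labels, which give 3 lines per genotype in 3 cultures.

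The 3 cultures of each line, which share a tumor, were added up. Genes were kept with filterByExpr (minimum count 10, minimum total 15), scaled by TMM (factors 0.941 to 1.06) and tested with edgeR 4.0.16 (quasi-likelihood, Benjamini-Hochberg over all genes tested, threshold 0.05) in R 4.3.3. Intervals are 95%, and those on counts are exact and cover counting error only, as is the limit of 3 counts that a count of 0 allows. The variance between lines was taken on log2(CPM + 0.1). Lengths and positions came from GENCODE M21 (GRCm38), and promoters from RefSeq. The fit was tested on simulated data in which sets of 50 genes were changed by a known amount. It called 9 of 50 at a log2 change of 1, 35 at 2, 43 at 3 and 48 at 4. Of 14723 unchanged genes it called 8. A gene not called can thus still differ between the genotypes. No pairing of the samples by line number was seen.

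The 39 genes, the pathway and marker lists and the naming rule were chosen with earlier results of these data known. Some markers of the Schwann cell list are not reported here. Full statistics were given for genes called, genes whose lines did not overlap and the extremes of each role or list. As alternatives served the 18 cultures each as a sample, DESeq2 1.42.0, other scaling and filters, a line-number block, and each line or culture left out. Plots used matplotlib 3.10.9.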

Additional observations from a re-analysis of the deposited data

How the results depend on the processing

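The number of members called moved with the unit of replication. With the 18 cultures as separate samples, edgeR called 13 of the 31 members tested (4 higher and 9 lower), against 46.5% of all genes (6096 in all). DESeq2 on these cultures called 17 of 39 (4 higher and 13 lower), against 30.1% of the 23859 genes it gave a p (7171 in all). Both fits count cultures of 1 tumor as independent. On the 6 lines DESeq2 called 6 of 37, against 8.67% of the 23714 genes it gave a p (2055 in all). These were *Sulf2*, higher, and *Lum*, *Sulf1*, *Ndst3*, *Hs3st1* and *Extl1*, 5 lower. This fit gave no p for *Dcn* and *Fmod*. Without scaling factors 423 genes (2.78%) were called, 2 members among the lower ones, and the median log2 fold change of all genes went to −0.16. Without a filter 4 of 39 members were called, 3 lower, with *Lum* and *Ndst3* added, against 1.72% of all genes (411 of 23859). With each line left out in turn, genes called ranged from 0 to 172 (0 to 1.11% of those tested). Members called ranged from 0 to 2, of which 0 to 1 were higher and 0 to 1 lower. With each culture number left out, 272 to 331 genes were called in all (1.88 to 2.29%). Members called then ranged from 2 to 3, of which 1 to 2 were lower. The pathway lists follow in the order linker and precursors, lysosomal breakdown, chondroitin and dermatan sulfate, other cores, hyaluronan and shedding. On the 18 cultures edgeR called 6, 5, 5, 10, 5 and 6 of their genes, and DESeq2 called 6, 5, 5, 13, 6 and 6. DESeq2 on the 6 lines called 2, 2, 2, 4, 4 and 1. In these fits 46.5, 30.1 and 8.67% of all genes were called, in that order. Leaving out 1 line gave 0 to 1 call in each of the first and second lists (*Slc35d1* and *Naglu*, without *Nf1*/*p53* dKO line 1) and 0 in the others. For none of these was the cause tested.

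With the line number as a replicate block, 0 genes and 0 members were called, 0 in each direction. On the log2 scale *Sulf2* then differed by 4.52 (adjusted p = 0.0965) and *Dcn* by −5.56 (adjusted p = 0.129). The deviations of same-numbered lines correlated at −0.124, −0.134 and −0.0857, and 0 of 3 lines correlated best with its own number. No pairing by number was seen. A batch shared by number, which differences between tumors could hide, was not tested. RLE factors and a minimum of 10 counts in every line kept *Sulf2* and *Dcn* as the 2 called. Over 17 alternatives *Sulf2* was called in 13, and *Dcn* in 10 of the 16 that gave it a p, with no change of direction in either. With exonic union lengths in place of the longest transcript, 9 of the 10 highest members per kilobase stayed among the 10 highest, and the order within the pair changed for *Ext1* and *Ext2* in every line and, in *Nf1*/*p53* dKO line 3, for *Bgn* and *Dcn* and for *Hs6st1* and *Hs6st2*. Depth limits *Gpc3*, *Acan*, *Hs6st3*, *Ndst4*, *Gpc5*, *Extl1*, *Hs3st1* and *Hs3st3a1*, each with few counts.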
